A study of Mus musculus with 6 samples.

Results

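The genes of the cytosolic ribosomal proteins were examined in the liver at postnatal day 19, in p62+/+ mice and in p62S351E/+ mice. They were taken from the table of counts by their symbols, Rpl or Rps with a number and at most 1 letter a or x, together with Rplp0, Rplp1, Rplp2 and Rpsa, and symbols of pseudogenes were left out. Of the 24411 genes in the table, 76 were selected, of which 46 encode proteins of the large subunit and 30 proteins of the small subunit. The selection used symbols and no measured value, but it was made with earlier results of these data known. The 3 p62+/+ mice, called wild-type mice below, carried unaltered alleles of Sqstm1, the gene of p62. The 3 p62S351E/+ mice, called knock-in mice, were heterozygous for a phosphomimetic knock-in in which Ser351 of p62 is replaced by Glu. According to the methods of the study, the knock-in was made by prime editing in mouse embryonic stem cells and passed on through a chimeric male. The sex of the mice is not given in the labels. Each library came from the liver of a separate mouse, and its ribosomal RNA was depleted before sequencing.

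Cytosolic ribosomal proteins assemble with ribosomal RNA in the nucleolus and cytoplasm into the small subunit, which decodes the mRNA, and the large subunit, which forms the peptide bond. The liver, which secretes most plasma proteins, expresses their genes at a high level. Their mRNAs usually begin with a run of pyrimidines at the transcription start site, the terminal oligopyrimidine (TOP) motif, through which the kinase complex mTORC1 and the protein Larp1 control their translation. Many have processed pseudogenes, so that a short read can match several places in the genome.

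The sequence around the transcription start, where a TOP motif would lie, is shown for members with the most extreme differences between the genotypes. Rpl4, Rplp2 and Rps6 are shown as well. Each line is the sense strand from 80 bases before to 20 bases after the RefSeq start (GRCm38.p6), and runs of at least 8 pyrimidines are in capitals. The runs of Rps7, Rpl4, Rps21 and Rps23 end before this start, so on this annotation they lie outside the mRNA. Of the genes with the largest and smallest log2 fold changes, Rpl32 and Rpl29 had no entry. Rps21 had another RefSeq start, whose stretch held no run and is not printed.
Rps2, chr17:24719983-24720082, plus strand: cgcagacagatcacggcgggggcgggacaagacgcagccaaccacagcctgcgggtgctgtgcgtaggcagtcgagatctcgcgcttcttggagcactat
Rpl10, chrX:74270736-74270835, plus strand: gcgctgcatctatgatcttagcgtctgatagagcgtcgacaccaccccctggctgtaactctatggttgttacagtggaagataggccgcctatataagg
Rps7, chr12:28635934-28636033, minus strand: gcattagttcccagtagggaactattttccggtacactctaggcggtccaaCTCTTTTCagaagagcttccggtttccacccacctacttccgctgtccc
Rpl4, chr9:64173307-64173406, plus strand: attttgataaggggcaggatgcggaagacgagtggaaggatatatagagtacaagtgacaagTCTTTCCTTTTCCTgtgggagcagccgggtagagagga
Rplp2, chr7:141447571-141447670, plus strand: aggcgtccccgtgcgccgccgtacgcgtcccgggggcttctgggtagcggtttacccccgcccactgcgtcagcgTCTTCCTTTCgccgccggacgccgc
Rps6, chr4:86857348-86857447, minus strand: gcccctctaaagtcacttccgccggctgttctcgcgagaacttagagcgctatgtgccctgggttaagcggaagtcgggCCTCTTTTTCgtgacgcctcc
Rps15a, chr7:118116128-118116227, minus strand: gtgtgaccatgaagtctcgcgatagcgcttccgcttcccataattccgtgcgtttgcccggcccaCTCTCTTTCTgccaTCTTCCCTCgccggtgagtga
Rps21, chr2:180257369-180257468, plus strand: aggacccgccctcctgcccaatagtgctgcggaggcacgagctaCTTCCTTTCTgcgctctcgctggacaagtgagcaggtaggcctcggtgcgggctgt
Rps23, chr13:90923042-90923141, plus strand: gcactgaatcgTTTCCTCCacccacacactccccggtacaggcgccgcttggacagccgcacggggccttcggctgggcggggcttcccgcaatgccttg
Rpl14, chr9:120571437-120571536, plus strand: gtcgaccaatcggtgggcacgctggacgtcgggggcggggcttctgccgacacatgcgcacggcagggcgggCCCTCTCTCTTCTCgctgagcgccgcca

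Rps2 and Rpl10, with the largest log2 fold changes, held no run of this length in the printed stretch. Rps15a, with the smallest, held a pair of them around the start. Of the 76 members, 56 matched the RefSeq promoter table by symbol, and 32 of them (57.1%) had a run of at least 8 bases C or T on the sense strand within 30 bases either side of a start. The share over all 27025 genes of the table was 25.8%. CCGGAAG, a core of the motif bound by ETS factors, was found on either strand of the 300-base window in 41.1% of the members and 9.93% of all genes. TATAAA within 50 bases before the start was found in 0 of 56 members and in 3.15% of all genes. The 28 tested members with such a run within 30 bases of a start had a median log2 fold change (p62S351E/+ over p62+/+) of 0.25. The 23 without one in that range had a median of 0.32. The printed runs of Rps21 and Rps23 lie wholly or partly beyond this distance and did not count, whereas that of Rps7, before the start, did. The split is therefore not one of TOP mRNAs against others. Both sets spanned 0, from -0.60 to 0.74 with a run and from -0.54 to 1.22 without.

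Counts of the 76 genes summed to 1999, 2161 and 2197 in wild-type mice 1, 2 and 3 and to 1006, 1947 and 2929 in knock-in mice 1, 2 and 3. The values are expected counts, the number of reads that RSEM assigned to each gene. The median gene had 23, 24.3 and 26 counts in the wild-type mice and 11.5, 23 and 32.6 counts in the knock-in mice. The genes were thus read at low depth, least in knock-in mouse 1. Total counts per library lay between 8696712 and 10341622, but only 134911 to 315436 of them fell outside Rn45s, Lars2 and Mir6236. The counts outside these 3 genes were 3.30%, 3.01% and 3.12% of the total in the wild-type mice. In the knock-in mice they were 1.30%, 2.25% and 3.12%. The summed counts of 10 hepatocyte markers such as Alb and Apob lay between 10258 and 23398 in all 6 libraries. The summed counts of 10 brain markers lay between 2295 and 2698 in the wild-type mice, were 46 and 34 in knock-in mice 1 and 2, and were 2474 in knock-in mouse 3. In knock-in mice 1 and 2, Snap25, Gfap, Stmn2 and Syp were at 0. Summed counts of markers of stellate cells and fibroblasts were 206 to 400 (wild type) and 75 to 183 (knock-in), of erythroid cells 176 to 228 and 70 to 92, of Kupffer cells and macrophages 122 to 145 and 78 to 154, and of endothelium 222 to 342 and 146 to 274. Markers of bile ducts had 38 to 110 and 38 to 39 counts, of proliferation 53 to 60 and 40 to 56, and of lymphocytes 1 to 10 in all libraries. These marker sums are raw counts. They are not scaled for the counts of each library outside Rn45s, Lars2 and Mir6236, which were fewest in knock-in mouse 1. The part of these cell types in the values below was not tested.

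As a share of all counts, ribosomal protein genes made up 0.0222%, 0.0217% and 0.0253% in the wild-type mice and 0.00972%, 0.0189% and 0.0290% in the knock-in mice. On this scale knock-in mice 1 and 2 lay below and knock-in mouse 3 above every wild-type mouse. The total here is mostly counts of Rn45s, Lars2 and Mir6236, as is the library size used as a scaling below. Outside Rn45s, Lars2 and Mir6236, the shares were 0.672%, 0.722% and 0.809% in the wild-type mice and 0.745%, 0.841% and 0.928% in the knock-in mice. The means were 0.734 ± 0.0694% and 0.838 ± 0.0916% (SD, n = 3 each), a ratio of 1.14, and the groups overlapped. Counts scaled by edgeR's trimmed mean of M values (TMM), called normalized counts here, summed over the 76 genes to 1604, 1678 and 1898 in the wild-type mice. They summed to 1915, 2453 and 2269 in the knock-in mice, all above every wild-type mouse, a ratio of the means of 1.28. Normalized counts of the hepatocyte markers summed to a ratio of 1.64, with 9 of 10 markers above 0 and a median log2 fold change of 0.48. For other markers the ratio was 1.31 (Kupffer cells and macrophages), 1.05 (endothelium) and 1.27 (proliferation). It was 0.57 for stellate cells and fibroblasts, 0.60 for erythroid cells, 0.73 for bile ducts and 0.335 for brain. Of tested markers, 4 of 6 were above 0 for Kupffer cells and macrophages, 1 of 5 for stellate cells and fibroblasts and 0 of 10 for brain. Against the direction of their sums, 3 of 4 erythroid markers (median 0.20) and 2 of 6 endothelial markers (median -0.11) were above 0. For bile ducts and for proliferation only 1 marker was tested. Relative to the counts of the hepatocyte markers, ribosomal protein counts were 12.0%, 13.8% and 14.8% in the wild-type mice and 9.80%, 8.32% and 16.2% in the knock-in mice. The direction of the summed difference therefore depended on the scale. In whole liver, a change in the number of cells of a type cannot be told apart from a change in their RNA per cell.

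**Figure D1:**
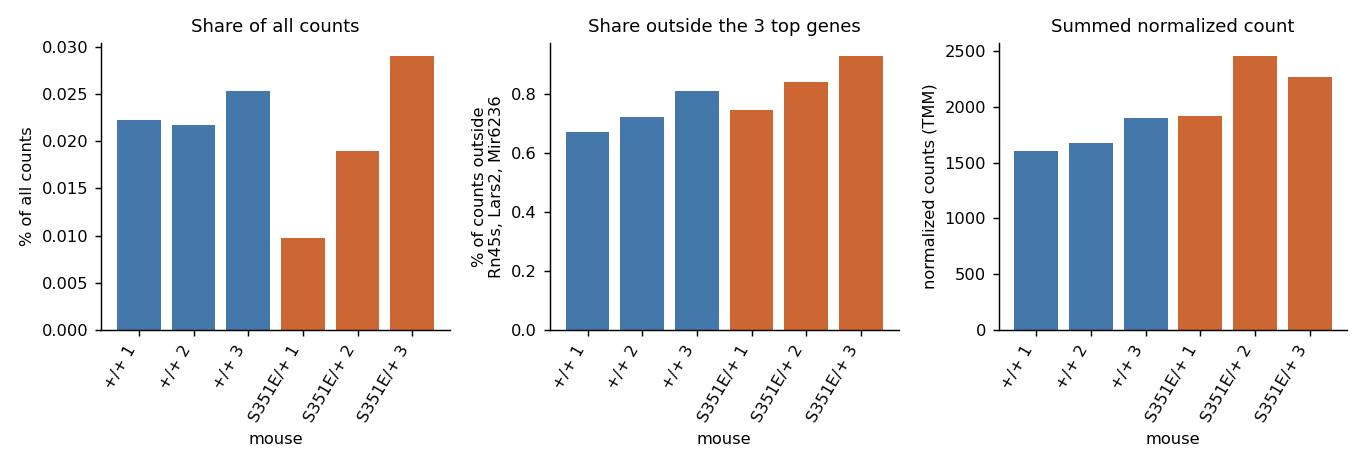
Bars give the summed counts of the 76 ribosomal protein genes in each of the 6 mice (blue, p62+/+; orange, p62S351E/+), as a percent of all counts, as a percent of counts outside Rn45s, Lars2 and Mir6236, and as TMM-normalized counts. The ratio of the group means is 0.833 in the first panel, 1.14 in the second and 1.28 in the third.

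The balance of the subunits was compared next. The ratio of large to small subunit counts was 1.82, 1.71 and 1.72 in the wild-type mice and 1.74, 1.67 and 1.77 in the knock-in mice. The means of 1.75 ± 0.0619 and 1.73 ± 0.0507 (SD, n = 3 each) differed by less than the spread between mice, and the ratio of counts within a library does not depend on its scaling.

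To ask whether single genes differed between the genotypes, all genes with enough counts were fitted together by edgeR's quasi-likelihood test, and 70 of the 76 members were among the 5945 genes tested (42 large, 28 small subunit). At an adjusted p (Benjamini-Hochberg) below 0.05, 0 members were higher and 0 were lower, against 0.841% of all genes higher and 0.0841% lower. The smallest adjusted p among the members was 0.121. At an unadjusted p below 0.05, 15 members (21.4%) were higher and 0 lower, against 9.02% and 5.55% of all genes. At that level limma-voom gave 18 of 70 members higher and 0 lower (9.91% and 9.55% of all genes). DESeq2 gave 3 and 0 of 75 (1.95% and 1.85%). This count depended on the scaling. With library size as the only scaling, 0 members were higher and 0 lower, against 0.841% and 11.1% of all genes. With summed hepatocyte markers as the library size, 0 were higher and 0 lower (1.4% and 13.3%), and with the total outside Rn45s, Lars2 and Mir6236, 5 were higher and 0 lower (6.04% and 8.02%). In 18 members (25.7%) every knock-in mouse had a higher normalized count than every wild-type mouse, and in 0 every one was lower, against 12% and 14.7% of all genes. With 3 mice per genotype, 0.1 is the smallest two-sided p that an exact permutation test of a single gene allows.

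Most members had log2 fold changes above 0 with TMM scaling and below 0 with library size alone. With TMM scaling, 57 of 70 (81.4%) were above 0, against 48% of all genes, with a median of 0.27 (quartiles 0.10 and 0.61) against -0.03. With library size as the only scaling the members' median was -0.33 and 15 of 70 were above 0, and the median of all genes moved to -0.68. With summed hepatocyte markers as the library size, the medians were -0.31 and -0.62. The members' median stayed above that of all genes under each of 19 other settings, by 0.16 (at least 10 counts in every library) to 0.48 (DESeq2, over genes without that filter). Large and small subunit genes had TMM-scaled medians of 0.30 and 0.27, with 34 of 42 and 23 of 28 above 0. The median standard error of a member was 0.30, about the size of the median itself.

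**Figure D2:**
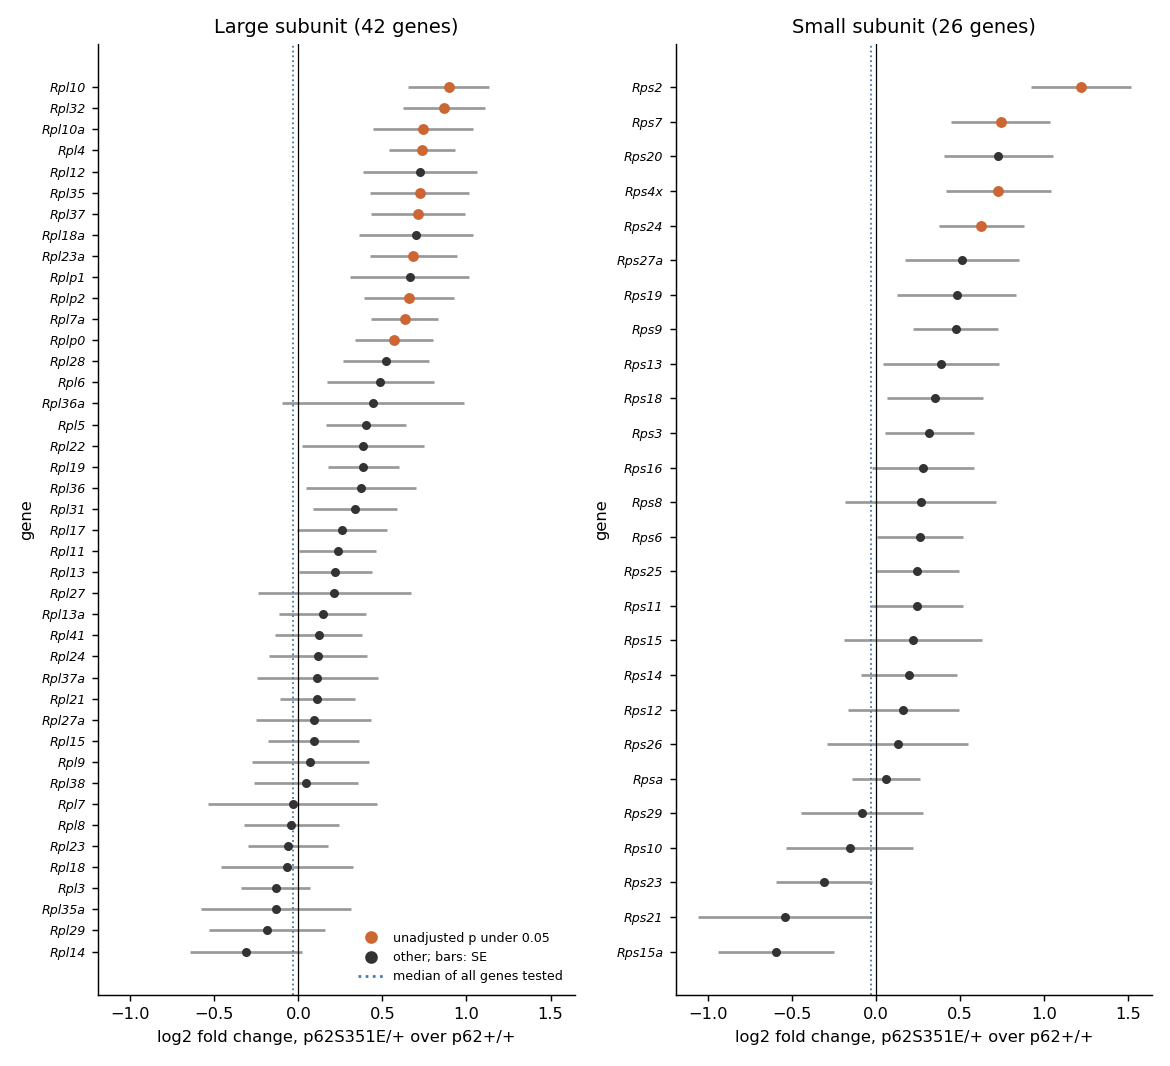
Points give the TMM-scaled log2 fold change of tested genes (p62S351E/+ over p62+/+) and bars its standard error, for 42 large and 26 small subunit genes, not all of those tested. Orange points mark the 14 genes drawn with an unadjusted p below 0.05, and the dotted line is the median of all genes tested, -0.03. With library size as the only scaling, 15 of 70 genes are above 0.

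**Figure D3:**
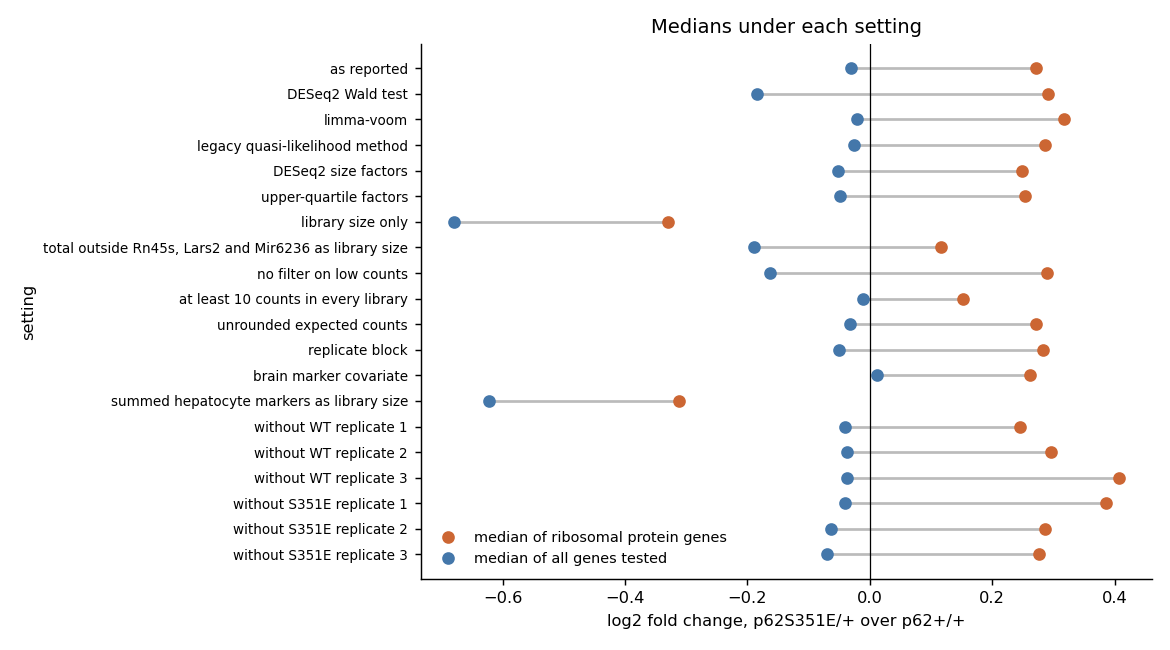
Points give the median log2 fold change (p62S351E/+ over p62+/+) of the tested ribosomal protein genes (orange) and of all genes tested (blue) under each setting. The ribosomal protein median is to the right of the all-gene median in every row, and below 0 with library size only (-0.33) and with hepatocyte markers as library size (-0.31).

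The knock-in mice did not contribute equally. Against the mean of the wild-type mice on the log2(normalized count + 0.5) scale, the members' median was 0.10, 0.45 and 0.34 in knock-in mice 1, 2 and 3, and -0.04, -0.03 and 0.14 in the wild-type mice themselves. In knock-in mouse 1, 28 of 70 members were above every wild-type mouse and 16 were below, in mouse 2 it was 45 and 3, and in mouse 3 it was 39 and 2. Of all genes tested, 33.8% were above and 42.7% below in mouse 1, 34.5% and 41.2% in mouse 2, and 27.7% and 29.6% in mouse 3. The hepatocyte markers had medians of 0.52, 1.04 and 0.02 in these mice. The members' median in knock-in mouse 3, the knock-in library with 2474 brain marker counts, lay between those of the other libraries of its group. With the brain marker counts as a covariate, the members' median was 0.26 and 0 members passed. With a single such knock-in library, the part of brain transcripts in the members' values was not tested. Among mice of the same genotype, the members' median chi-square per degree of freedom was 0.98 (wild type) and 1.06 (knock-in), where counting error alone gives a median of 0.693. Genes of the same range of counts had 0.965 and 1.62.

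Among genes of the small subunit, Rps2, whose protein lies at the mRNA entry channel, had 26.5, 32.6 and 39.6 normalized counts in wild-type mice and 55.2, 107 and 67.4 in knock-in mice. The groups did not overlap, and the log2 fold change was 1.22 (SE 0.30, adjusted p = 0.121, edgeR), the largest of all members. Rps7 had 12.0, 17.9 and 23.3 normalized counts in wild-type mice and 28.6, 27.7 and 32.5 in knock-in mice (log2 fold change 0.74, SE 0.30, adjusted p = 0.31, edgeR). Its groups did not overlap either. Both genes share sequence with other genes. Of the 75-base windows of its transcript in GENCODE (GRCm38), 71.1% for Rps2 occurred also in transcripts of 50 other genes, pseudogenes included, and 68.9% for Rps7 in 11 genes.

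Among genes of the large subunit, Rpl10, whose protein is among the last to join the large subunit in the cytoplasm, had 36.9, 31.1 and 31.96 normalized counts in wild-type mice and 51.4, 79.4 and 55.0 in knock-in mice. The groups did not overlap (log2 fold change 0.89, SE 0.24, adjusted p = 0.158, edgeR), and 91.9% of its windows occurred in other genes. Rpl32 had 16.8, 24.0 and 22.5 and then 40.0, 33.9 and 41.8 normalized counts (log2 fold change 0.87, SE 0.24, adjusted p = 0.178, edgeR). All 3 knock-in mice lay above the wild-type mice, and only 5.87% of its windows were shared. Rpl4, whose protein lines the exit tunnel of the nascent peptide, had the highest mean count of the members and 8.47% shared windows. Its normalized counts were 69.8, 69.9 and 65.6 in wild-type mice and 116, 99.5 and 126 in knock-in mice (log2 fold change 0.74, SE 0.20, adjusted p = 0.158, edgeR). The wild-type mice lay within a narrow range, below every knock-in mouse. Rpl3, a protein near the peptidyl transferase centre, had 59.4, 65.2 and 56.1 and then 47.6, 55.4 and 61.2 normalized counts, and its groups overlapped (log2 fold change -0.13, SE 0.21).

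The genes of the P stalk, the lateral arm of the large subunit that recruits elongation factors, had log2 fold changes from 0.57 to 0.66. Rplp0, the base of the stalk, had 36.1, 43.5 and 48.4 normalized counts in wild-type mice and 72.4, 66.8 and 51.1 in knock-in mice (log2 fold change 0.57, SE 0.23, adjusted p = 0.319, edgeR). Rplp2 had 13.6, 12.4 and 12.1 and then 20.9, 20.1 and 19.2 normalized counts (log2 fold change 0.66, SE 0.27, adjusted p = 0.32, edgeR). The groups did not overlap in either gene. Rplp1, the partner of Rplp2, had 19.3, 31.8 and 33.7 and then 26.7, 64.3 and 42.6 normalized counts, with overlap (log2 fold change 0.66, SE 0.35, adjusted p = 0.421, edgeR).

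Rpl5 and Rpl11, which bind Mdm2 when ribosome assembly is disturbed, had smaller log2 fold changes than the stalk genes, a difference that was not tested. Rpl5 had 28.7 ± 3.59 normalized counts in wild-type mice and 37.9 ± 6.87 in knock-in mice, and Rpl11 had 23.8 ± 1.65 and 28.1 ± 2.37 (SD, n = 3 each). Their log2 fold changes were 0.40 (SE 0.24) and 0.23 (SE 0.23), and both pairs of groups overlapped. Rps6, the substrate of S6 kinases downstream of mTORC1, had 41.9 ± 8.62 and 50.1 ± 10.1 normalized counts (log2 fold change 0.26, SE 0.25). Rpsa, a small subunit protein also known as the laminin receptor, had 54.0 ± 5.10 and 56.3 ± 3.74, with a log2 fold change of 0.06 (SE 0.20). Rps27a, made as a fusion with ubiquitin, had 16.5 ± 2.52 and 23.2 ± 8.999 (log2 fold change 0.51, SE 0.34). Rps19, mutated in Diamond-Blackfan anaemia, had 12.6 ± 3.58 and 17.7 ± 4.78 (log2 fold change 0.48, SE 0.35). Rpl24, at a bridge between the subunits, had a log2 fold change of 0.12 (SE 0.29) and Rpl41, the shortest ribosomal protein, 0.12 (SE 0.26). All of these groups overlapped.

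At the other end of the order, 13 members had log2 fold changes below 0, none with an unadjusted p below 0.05. Rps15a had 18.5, 19.1 and 13.5 normalized counts in wild-type mice and 11.4, 7.56 and 14.7 in knock-in mice (log2 fold change -0.60, SE 0.34, adjusted p = 0.445, edgeR). Rps21 had 13.6, 8.54 and 12.1 and then 1.90, 10.1 and 10.1 normalized counts (log2 fold change -0.54, SE 0.52). The low value of Rps21 was in knock-in mouse 1, the library with the fewest counts for these genes. Rps23, in the decoding centre, had a log2 fold change of -0.31 (SE 0.29), Rpl14 of -0.31 (SE 0.33) and Rpl29 of -0.19 (SE 0.35), and the groups of all 5 genes overlapped.

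**Figure D4:**
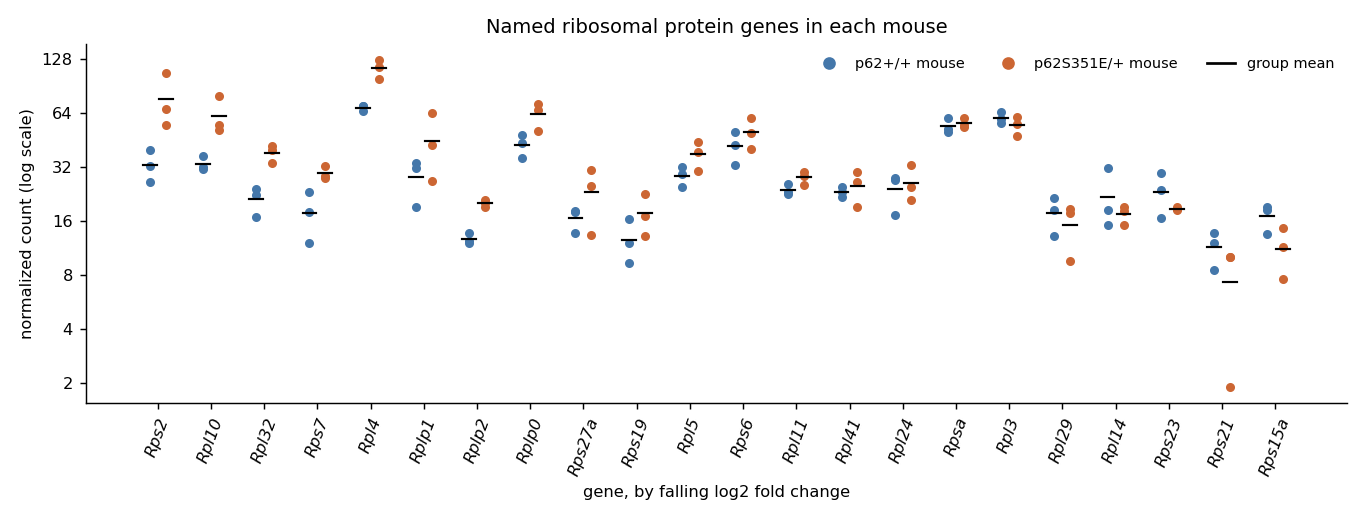
Points give the normalized count (TMM, log scale) of 22 ribosomal protein genes in each mouse (blue, p62+/+; orange, p62S351E/+), ordered from the largest log2 fold change to the smallest, and lines the group means. The groups are apart for Rps2, Rpl10, Rpl32, Rps7, Rpl4, Rplp2 and Rplp0 and overlap for the others.

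Leaving out knock-in mouse 3 changed the calls. Without it, 5 of 71 members tested (7.04%) were higher at an adjusted p below 0.05, against 7% of 6390 genes. They were Rps2 (log2 fold change 1.31, adjusted p = 0.00763, edgeR), Rpl10 (0.98, adjusted p = 0.0175), Rps20 (0.99, adjusted p = 0.0324), Rpl10a (0.94, adjusted p = 0.046) and Rpl4 (0.65, adjusted p = 0.0449), and 0 members were lower, against 15.6% of all genes. Rps20 and Rpl10a are named here after their values were seen. The share of members called higher was thus near that of all genes. The remaining knock-in mice were those with 46 and 34 brain marker counts, and the part of these transcripts in the calls was not tested. Rps2 alone passed in limma-voom (adjusted p = 0.0336) and with at least 10 counts in every library (adjusted p = 0.0308), which left 47 members to test.

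The genes of the X chromosome were looked at beside Xist, an RNA that coats the silenced X of female cells, which had 70.8, 1505 and 1071 counts in wild-type mice and 1, 0 and 1537 counts in knock-in mice. Of the 4 members on the X chromosome, Rpl10 is given above and Rpl39 was not tested. Rps4x had 20.1, 24.1 and 41.5 and then 41.9, 58.0 and 41.8 normalized counts (log2 fold change 0.73, SE 0.31, adjusted p = 0.335, edgeR), and Rpl36a had 4.01, 9.32 and 17.3 and then 20.9, 12.6 and 9.30 (log2 fold change 0.44, SE 0.54). Within the knock-in group, mouse 3, with high Xist, had a Rpl10 count between those of mice 1 and 2. Its Rps4x count (41.8) was next to that of mouse 1 (41.9) and below that of mouse 2 (58.0), and its Rpl36a count (9.30) was the lowest of the group. The part of sex in these values was not tested.

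Per kilobase of transcript, the levels of tested members spanned 11.1-fold, with a median of 32.7 normalized counts per kilobase and quartiles of 25.7 and 42.7. The highest by the mean over all 6 mice, named here after their values were seen, were Rplp1 (56.6 ± 15.7 in wild-type and 89.2 ± 37.8 in knock-in mice), Rpl23a (48.0 ± 9.85 and 76.9 ± 15.3) and Rpl10 (41.7 ± 3.95 and 77.5 ± 19.04) normalized counts per kilobase (SD, n = 3 each). The means ± SD of these genes overlapped in each genotype, so their order is not resolved. In wild-type mice alone, Rpl41 (53.3 ± 3.59) and Rpl19 (51.2 ± 1.34) were next to Rplp1, and Rpl10 lay below them. Rps20 was lowest in both genotypes, with 4.92 ± 0.785 and 8.22 ± 2.996, calculated over a transcript of 3706 bases, whereas the median transcript was 705 bases. The order of levels therefore depends on the transcript chosen for each gene.

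The members that were not tested were Rpl26, Rpl30, Rpl34, Rpl39, Rps27 and Rps28. Rpl26 was listed at 0 in all 6 libraries. Rpl30 was at 0 except for 5.17 counts in knock-in mouse 3, and Rps27 was at 0 except for 3.20 counts in knock-in mouse 2. These are genes that every cell uses. Rps27rt, a retrocopy of Rps27 outside the selected symbols, had 8, 10 and 16 counts in wild-type mice and 4, 9.80 and 12 in knock-in mice, and 98.5% of the windows of Rps27 occurred in other genes. Rpl34 had 12, 2.58 and 0 counts and then 2, 5.29 and 6.11, while its pseudogene Rpl34-ps1 had 6, 6.42 and 10 and then 0, 12.7 and 8.89. Rpl26 shared 57.5% and Rpl30 40.1% of their windows, beside a median of 48.5% over all members and 49.5% over the untested members. The part of shared sequence in these low counts was not tested. Rps3 shared 0 windows.

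Non-whole counts, which RSEM gives where it divides reads among genes, occurred in 14 members beyond a tolerance of 0.05, in 36 of 456 values. The largest deviations from a whole number were in Rpl31 (0.45, and non-whole in all 6 libraries), Rpl37 (0.45), Rpl14 (0.44), Rpl34 (0.42) and Rps15a (0.40). The 59 tested members with whole counts had log2 fold changes with a median of 0.26 and the 11 with non-whole counts 0.34. A whole count does not show that its reads were unique to the gene.

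Ribosomal proteins whose symbols the selection did not cover were examined beside the members. Of 7 tested, 6 had log2 fold changes above 0 (median 0.44) and 0 passed the adjusted threshold. Rps3a1, which encodes the small subunit protein Rps3a, had a log2 fold change of 0.42 (SE 0.20), Gnb2l1, the Rack1 scaffold of the small subunit, 0.44 (SE 0.21) and Fau, a fusion with a ubiquitin-like protein, 0.44 (SE 0.26). Rps27rt is counted in this list, and Rpl36al and Rpl7l1 also.

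Translation factors and some other genes, such as Npm1, Nap1l1 and Hnrnpa1, were compared as genes with TOP mRNAs, which share translational control with the members. The motif was taken as known for this list and was not looked for. Of 18 tested, 13 were above 0 with a median of 0.33, and 0 passed in either direction. Eef1a1, which delivers aminoacyl-tRNA, had 374, 371 and 404 normalized counts in wild-type mice and 686, 932 and 613 in knock-in mice (log2 fold change 0.96, SE 0.23, adjusted p = 0.118, edgeR). Eef2, the translocation factor, had 226, 282 and 282 and then 373, 407 and 412 normalized counts (log2 fold change 0.59, SE 0.20, adjusted p = 0.255, edgeR). Tpt1 had a log2 fold change of 0.46 (SE 0.20), and in these 3 genes every knock-in mouse lay above the wild-type mice. Eif4a2, an RNA helicase of initiation, had the opposite sign, with 90.6 ± 12.2 and 67.8 ± 13.2 normalized counts (SD, n = 3 each) and every knock-in mouse below. Its log2 fold change was -0.42 (SE 0.23). Pabpc1, the poly(A)-binding protein, named after its values were seen, had the smallest adjusted p of the list (0.116, edgeR) and a log2 fold change of 0.93 (SE 0.22). With library size as the only scaling the median of this list was -0.32, and that of the ribosomal proteins outside the selection was -0.22.

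Among the lists of other steps of translation, 0 genes passed in either direction. Ribosome assembly factors, which process ribosomal RNA and build the subunits, had 7 of 16 above 0 (median -0.11), and other initiation and elongation factors 15 of 21 (median 0.10). Genes of mTORC1 and stress control of translation had 8 of 18 above 0 (median -0.02), p53 target genes 2 of 4 (median 0.19) and mitochondrial ribosomal proteins 1 of 4 (median -0.11), of 77 in the table. Ncl, the nucleolar protein nucleolin, had a log2 fold change of 0.12 (SE 0.20), Eif4g1, the scaffold of cap-dependent initiation, of 0.22 (SE 0.20) and Larp1 of -0.03 (SE 0.22). The differences between the lists were not tested.

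**Figure D5:**
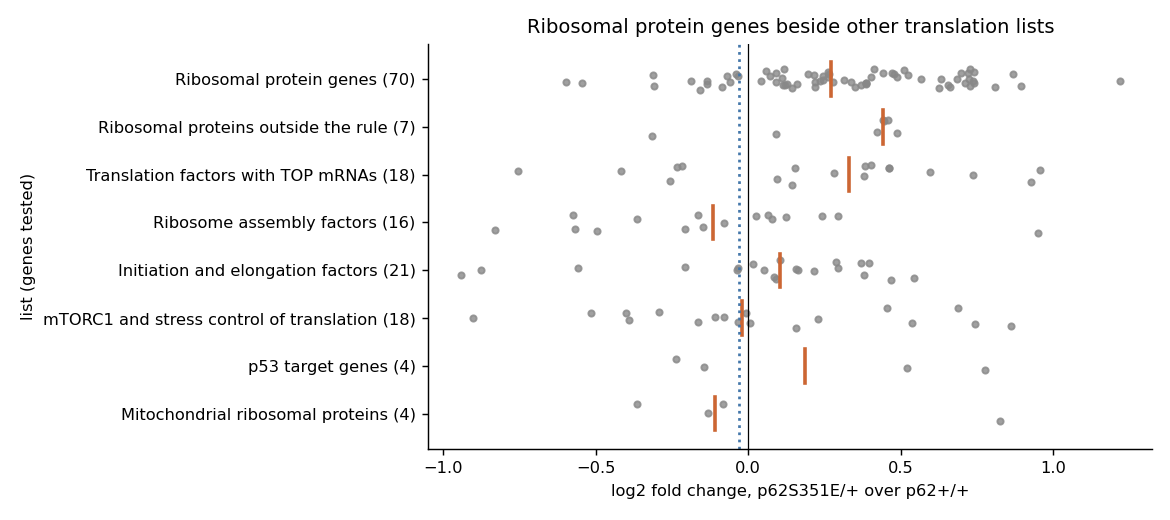
Points give the TMM-scaled log2 fold change (p62S351E/+ over p62+/+) of each tested gene, with vertical lines at the medians, for ribosomal protein genes (median 0.27) and lists of other translation genes. The list named for translation factors with TOP mRNAs also holds some other genes. The dotted line is the median of all genes tested, -0.03, and the number in brackets is that of genes tested. With library size as the only scaling the ribosomal protein median is -0.33.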

How the data were processed

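Liver RNA of 3 p62+/+ and 3 p62S351E/+ mice was extracted, depleted of ribosomal RNA and sequenced as 75-base single-end reads. The authors mapped the reads with STAR to mm10, estimated expected counts per gene with RSEM and deposited them without normalization. Trim Galore and DESeq2 are also named in the submitters' processing notes. Versions and the annotation are not given in the sources used here. Groups and replicate numbers came from the labels.

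Expected counts were rounded for testing. Genes were filtered by filterByExpr (minimum count 10), scaled by TMM and tested with edgeR 4.0.16 in R 4.3.3 (quasi-likelihood, robust, legacy set to FALSE), with adjustment by Benjamini-Hochberg over all 5945 genes tested. Standard errors were derived from the fold change and its F statistic. For normalized counts, each library was scaled to the geometric mean of the 6 effective library sizes (TMM). Alternatives used limma 3.58.1, DESeq2 1.42.0, other scalings and filters, a replicate block and leaving out each mouse. The fits were run on simulated counts with known changes, drawn with the same dispersion for every gene. The simulation held no differences between libraries in the share of Rn45s, Lars2 and Mir6236, so it cannot check the fits on that point. The p-values measure the spread between mice. Counting error alone is largest for genes with few counts, and the low depth (between 134911 and 315436 counts outside Rn45s, Lars2 and Mir6236) limits all values.

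The members, the companion and marker lists and the tests were chosen with earlier results of these data known. Named genes were members with an adjusted p below 0.05, the 5 largest and 5 smallest log2 fold changes, the 5 highest mean normalized counts, 12 genes chosen for their roles, the members not tested and the 5 with the largest deviation from whole counts. Other genes are named where a result turns on them. In companion lists, genes were named by an adjusted p below 0.05 or by up to 4 of the highest mean normalized counts. Positions and transcripts are those of GENCODE vM21 (GRCm38, the build of mm10), with the shortest complete principal transcript of each gene. Promoter sequences are from RefSeq (GRCm38.p6). Some genes that these rules select are not reported here by name.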

Additional observations from a re-analysis of the deposited data

How the results depend on the processing

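The number of members higher was 0 in edgeR with all 6 mice. It was 1 of 70 with limma-voom (134 of 5945 genes) and 1 of 47 with at least 10 counts in every library (100 of 2343 genes). When each mouse was left out in turn it was 0 to 5, with 5 only without p62S351E/+ mouse 3. The number lower was 0 under every setting run. At an unadjusted p below 0.05, 15 of 70 members were higher in edgeR with all 6 mice (9.02% of all genes). With at least 10 counts in every library it was 4 of 47, a share below the 11.7% of all genes. It was 7 of 70 with the replicate block (7.2%) and 8 of 70 with the brain marker covariate (3.78%). With a mouse left out it was 5 to 12 of 70 to 72 (5.89% to 12.4%), with 5 without p62+/+ mouse 1. The median log2 fold change of the members, 0.27, was -0.33 with library size only, -0.31 with summed hepatocyte markers as the library size (chosen after seeing the data) and 0.12 with the total outside Rn45s, Lars2 and Mir6236 as the library size. It was 0.25 to 0.41 with a mouse left out and 0.26 over members with whole counts. The ratio of the summed shares, 1.14, was 0.833 over all counts and 1.08 to 1.2 with a mouse left out. Single genes changed sign as the scaling did. With library size only, the log2 fold change was -0.59 for Rpsa, -0.15 for Rplp0, -0.0065 for Rplp2, -0.011 for Rps27a, -0.33 for Rps6, -0.18 for Rpl5, -0.44 for Rpl11, -0.49 for Rpl41, -0.23 for Rps19 and -0.52 for Rpl24. With hepatocyte markers it was -0.54 for Rpsa, -0.065 for Rplp0, -0.0079 for Rplp1, -0.039 for Rps27a, -0.26 for Rps6, -0.16 for Rpl5, -0.38 for Rpl11, -0.48 for Rpl41, -0.19 for Rps19 and -0.52 for Rpl24. With the total outside the 3 genes it was -0.11 for Rpsa, -0.045 for Rpl41 and -0.055 for Rpl24, and with at least 10 counts in every library -0.19 for Rpsa, -0.015 for Rpl11, -0.11 for Rpl41 and -0.12 for Rpl24. With the brain marker covariate Rpl29 was at 0.0050, Rpl3 at 0.0041 and Rpl24 at -0.015. With a mouse left out, Rpl14 ran from -0.50 to 0.062, Rpl29 from -0.36 to 0.044, Rpl41 from -0.011 to 0.29 and Rpl24 from -0.066 to 0.25. Of the values of 23 named genes under other settings, 391 kept their direction and side of the threshold, 35 changed sign and 5 newly passed the threshold. Over all genes, 50 were higher and 5 lower, against 447 and 994 without p62S351E/+ mouse 3, 134 and 13 with limma-voom, 100 and 45 with at least 10 counts in every library, 79 and 10 without a filter, 12 and 2 with library size only and 30 and 2 with the brain marker covariate. The causes of these changes were not tested. Mice of the same replicate number did not deviate together (correlations of 0.068, -0.080 and 0.0026 over all genes tested), and with the replicate number as a block 0 members were higher and 0 lower, the median was 0.28, and 18 of all genes were higher and 1 lower. Depth limits all of this, since the median member had 11.5 to 32.6 counts per library.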
